A study of Mus musculus with 12 samples.

Results

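The acyl-CoA thioesterases examined in *db*/*db* mouse liver were the products of 9 genes, *Acot1*, *Acot2*, *Acot3*, *Acot4*, *Acot7*, *Acot8*, *Acot9*, *Acot12* and *Acot13*. Their probes were found by gene name alone, as every non-control probe whose RefSeq record belongs to one of these genes, which gave 11 of the 39429 probes and 9 of the 20283 gene symbols on the array. *Acot3* and *Acot8* had 2 probes each and the other 7 genes had 1. A gene with 2 probes is represented by the brighter one, and the other is given beside it. All mice were male, 8 weeks old and homozygous for the *db* allele, which leaves the leptin receptor without function, so the controls were obese and diabetic as well and no lean mice were compared here. In 3 groups, MgH2, a powder that releases H2 in the stomach, was given by gavage once a day for 1, 3 or 7 days, at 0.9 mg/kg by the labels, although the methods give other doses, and the controls received Mg(OH)2. In the fourth group, mice drank water with 0.8 mM H2 for 14 days and the controls drank degassed water. RNA of 3 mice was mixed into a pool, and each of 3 treated pools (Cy5) was hybridized with a control pool (Cy3) on a two-color array, which gave 12 arrays, 3 in each of 4 groups. The dyes were never swapped, so a bias of the dyes cannot be told apart from treatment, and p-values measure the spread between pools.

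Acyl-CoA thioesterases cut the bond between a fatty acid and coenzyme A, which returns a free fatty acid and free coenzyme A. They work against the acyl-CoA synthetases, which make that bond, and so set how much acyl-CoA is on hand in each part of the cell. The family has a type I branch, here *Acot1* to *Acot4*, whose genes lie next to each other on chromosome 12 and encode close relatives of different place in the cell. The type II branch, here *Acot7*, *Acot8*, *Acot9*, *Acot12* and *Acot13*, has a hot dog fold and is unrelated to type I in sequence. In the liver, type I genes are known targets of PPARα, the nuclear receptor that turns on fatty acid oxidation in fasting, and PGC-1α is a coactivator of that receptor. Members of the cytosol are *Acot1*, *Acot7* and *Acot12*, those of the mitochondria *Acot2*, *Acot9* and *Acot13*, and those of the peroxisome *Acot3*, *Acot4* and *Acot8*. In whole liver, fewer cells of a type and less RNA per cell cannot be told apart.

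PPARα binds DNA with its partner RXR at repeats of the letters AGGTCA, so the promoters of the members were searched for that half-site on both strands. Promoters of 8 members were at hand, each of 300 bases, from 250 before the transcription start to 50 after it (RefSeq, GRCm38.p6), and *Acot13* had no entry. *Acot3*, *Acot4* and *Acot12* each held 1 half-site, and the other 5 held none. Of all 32851 promoters of this length, 16.3% held it. The full repeat AGGTCANAGGTCA was in none of the 8 and in 0.0396% of all promoters. The 3 promoters with the half-site are shown because *Acot3* and *Acot4* are the peroxisomal pair whose control levels differed most between pools and *Acot12* was called at 3 and 7 days. Capitals mark the half-site, which reads TGACCT here since it lies on the opposite strand.
Acot3, chr12:84051894-84052193, + strand: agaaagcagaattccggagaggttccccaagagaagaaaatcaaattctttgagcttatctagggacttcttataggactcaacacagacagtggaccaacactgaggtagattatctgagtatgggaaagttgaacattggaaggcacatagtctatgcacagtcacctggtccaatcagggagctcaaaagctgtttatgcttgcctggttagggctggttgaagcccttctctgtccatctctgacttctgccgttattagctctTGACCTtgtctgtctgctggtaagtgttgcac
Acot4, chr12:84038129-84038428, + strand: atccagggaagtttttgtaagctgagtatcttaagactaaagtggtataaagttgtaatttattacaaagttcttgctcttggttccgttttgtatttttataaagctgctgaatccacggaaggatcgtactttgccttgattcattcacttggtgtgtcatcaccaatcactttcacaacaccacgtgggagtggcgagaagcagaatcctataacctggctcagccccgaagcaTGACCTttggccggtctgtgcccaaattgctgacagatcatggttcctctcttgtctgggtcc
Acot12, chr13:91741271-91741570, + strand: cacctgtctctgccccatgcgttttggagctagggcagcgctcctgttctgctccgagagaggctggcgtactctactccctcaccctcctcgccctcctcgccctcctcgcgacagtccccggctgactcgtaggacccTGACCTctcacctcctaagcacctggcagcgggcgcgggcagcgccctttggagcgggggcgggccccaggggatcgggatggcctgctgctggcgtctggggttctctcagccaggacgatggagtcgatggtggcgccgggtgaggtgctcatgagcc
Relative to the start, the half-site begins 110 bases before it in *Acot12*, 13 bases before it in *Acot4* and 18 bases after it in *Acot3*. *Acot3* has a second entry that begins 7 bases further on and holds the same half-site. A match describes letters and is no evidence of binding.

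Between 51.8% and 56.5% of the spots were well above background in both channels, and the total processed intensity of Cy5 was 1.01 to 1.03 times that of Cy3 on the 12 arrays. No spot was saturated, and 160 to 244 spots an array were left out because the scanner software had marked them. All 10 hepatocyte markers examined were above background on every array of the MgH2 groups, and 9 passed that filter at 14 days. The adipocyte genes *Adipoq*, *Plin1* and *Lep* were well above background in no group. All arrays of 14 days shared a slide of their own and an earlier version of the scanner software, so slide and treatment cannot be told apart there. The 3 arrays of 1 day shared a slide with 1 of 3 days, and 2 arrays of 3 days shared another with 2 of 7 days.

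Few thioesterase genes changed, and the changes were small. Every one of the 9 genes was above background on all arrays where it was measured. After 1 day of MgH2, *Acot2* and *Acot8* fell and none rose, 2 of 9 genes tested, where 9.39% of all probes tested were called (5.15% higher and 4.24% lower). After 3 days only *Acot12* rose, 1 of 9 against 23.4% of all probes (12.3% higher and 11.1% lower). After 7 days *Acot12* and *Acot7* rose and *Acot8* fell, 3 of 9 against 29.5% of all probes (15.3% higher and 14.3% lower). After 14 days of H2-water none of the 8 genes tested by limma was called, against 8.84% of all probes (4.92% higher and 3.91% lower). Of these 8 genes, 2 had an unadjusted p under 0.05 by limma, as did 4973 of all 20411 probes tested. With so few members, 1 gene more or less moves the share past the background, and none of these shares sets the family apart. The median log2 ratio of the members was -0.08, -0.04, -0.05 and 0.16 after 1, 3, 7 and 14 days, and that of all probes tested lay between -0.00 and 0.01. By place, the cytosolic members gave 0 calls after 1 day, 1 after 3 days, 2 after 7 days and 0 after 14 days, each of them higher. These cytosolic calls were those of *Acot12* and *Acot7* alone. The mitochondrial and the peroxisomal members gave 1 and 2 calls over the 4 comparisons, each of them lower. They were *Acot2* once and *Acot8* at 2 times, the latter not shared by its second probe.

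**Figure D1:**
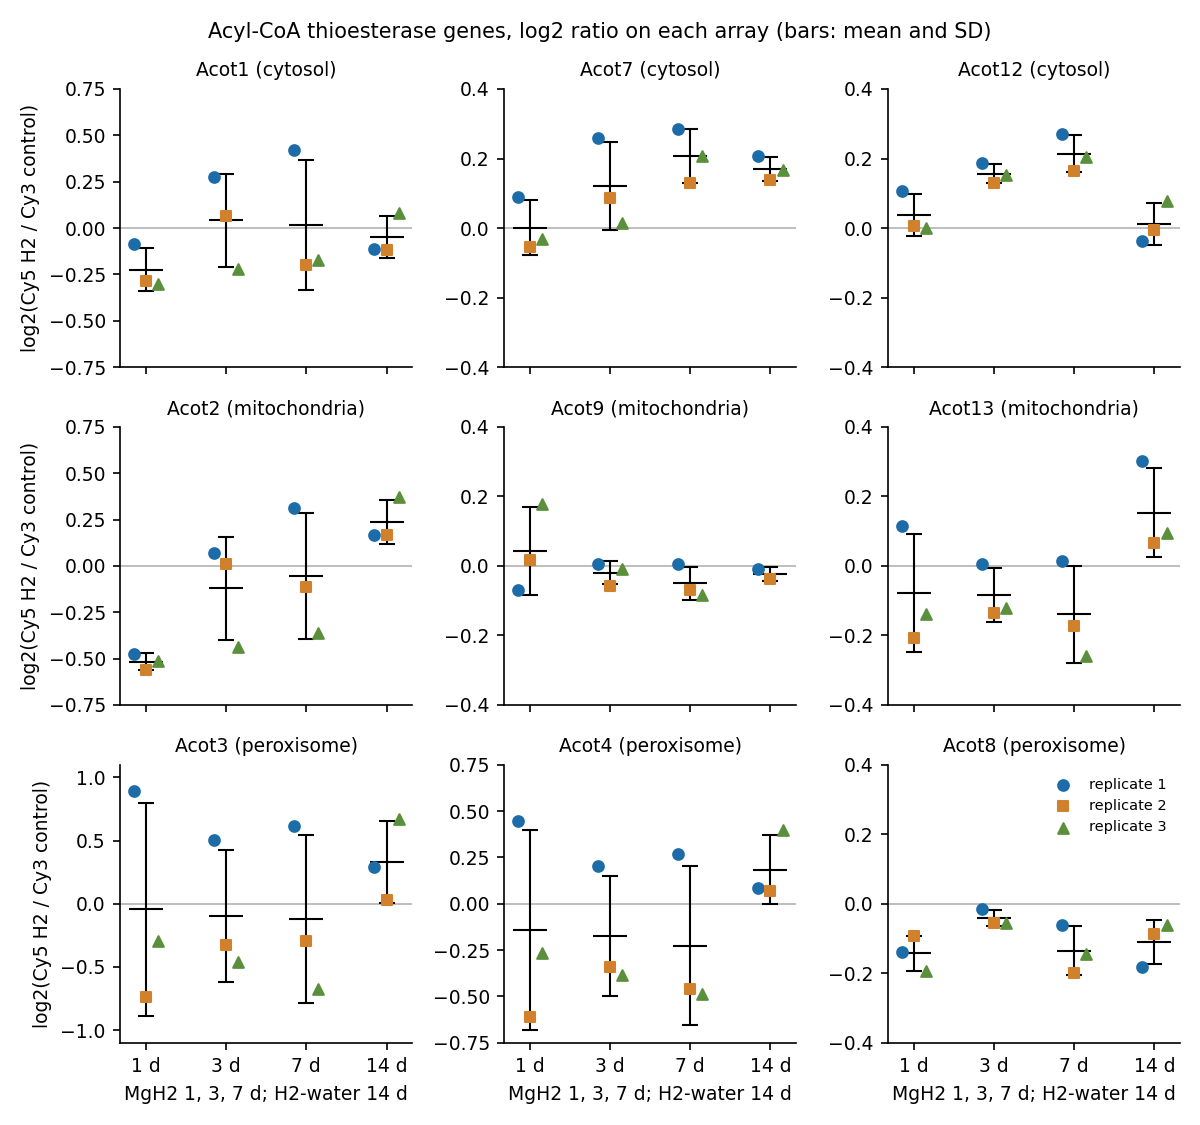
Log2 ratio of the H2 pool (Cy5) over the control pool (Cy3) for the 9 acyl-CoA thioesterase genes, with 1 point per array, marked by replicate number, and the mean and SD of each group as bars; the axes differ between panels. *Acot12* lies above 0 on all arrays of 3 and 7 days, *Acot2* below -0.45 on all 3 arrays of 1 day, and *Acot3* and *Acot4* spread widely, with replicate 1 on top at 1, 3 and 7 days.

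Among the cytosolic enzymes, *Acot12*, a liver thioesterase that acts on acetyl-CoA, gave the firmest change. Its log2 ratios were 0.11, 0.00 and -0.00 after 1 day, 0.19, 0.13 and 0.15 after 3 days, 0.27, 0.16 and 0.21 after 7 days, and -0.04, -0.01 and 0.08 after 14 days. The arrays of 3 and 7 days thus lay above all those of 1 and 14 days, and the share of all probes doing so was not counted. *Acot12* rose to 1.11-fold after 3 days (log2 0.16, SE 0.04, adjusted p = 0.0154 by limma) and to 1.16-fold after 7 days (log2 0.21, SE 0.04, adjusted p = 0.00254 by limma). The call at 7 days held when each of the 3 arrays was left out in turn (adjusted p from 0.00874 to 0.024), and that at 3 days did not (0.0545 to 0.074). *Acot7*, which acts on long-chain acyl-CoA in the cytosol and is best known from brain, had log2 ratios of 0.09, -0.06 and -0.03 after 1 day, 0.26, 0.09 and 0.01 after 3 days, 0.28, 0.13 and 0.21 after 7 days, and 0.21, 0.14 and 0.17 after 14 days. It was higher in the treated pool on all 9 arrays from 3 days on, and the share of all probes doing so was not counted. *Acot7* rose to 1.15-fold after 7 days (log2 0.21, SE 0.05, adjusted p = 0.0134 by limma), a call lost without replicate 1 (0.0915) or replicate 3 (0.0642). After 14 days its mean of 0.17 (SE 0.05) had an adjusted p of 0.0703 by limma, which became 0.0424 with the slide as a random block. All arrays of 14 days share a slide, so this block cannot separate slide from treatment. The mean was called in 2 of 11 alternative settings, and without any 1 array its adjusted p was 0.173 to 0.274 by limma. *Acot1*, the type I enzyme of the cytosol and a marker of PPARα activity, had log2 ratios of -0.09, -0.28 and -0.30 after 1 day, 0.28, 0.07 and -0.22 after 3 days, 0.42, -0.20 and -0.17 after 7 days, and -0.11, -0.12 and 0.08 after 14 days. Its 3 arrays of 1 day were below 0, and those of the later groups fell on both sides. Its adjusted p by limma lay between 0.276 and 0.939 over the 4 groups.

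Markers of cell types were measured beside the rise of *Acot7* and *Acot12*. Of 10 hepatocyte markers 4 were higher and 1 lower at 7 days, with a median log2 ratio of 0.18, and 2 were higher at 3 days, with a median of 0.12, where 15.3% and 12.3% of all probes were higher at 7 and 3 days. Of the 9 Kupffer cell and leukocyte markers tested, 4 were lower and none higher at 7 days (median -0.33), and 3 were lower and 1 higher at 3 days (median -0.27), where 14.3% and 11.1% of all probes were lower. The summed level of these leukocyte genes at 7 days was 65.9 to 74.9 in the control and 49.7 to 56.5 in the MgH2 pools, in intensity per 1000000 units of an array's total over both channels, and that of the hepatocyte genes 4702 to 5095 and 5352 to 6133. Their part in the changes of *Acot7* and *Acot12* was not tested.

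Among the mitochondrial enzymes, *Acot2*, the type I matrix enzyme that frees long-chain fatty acids from coenzyme A, was lower after 1 day. Its log2 ratios were -0.47, -0.56 and -0.51 after 1 day, 0.07, 0.01 and -0.44 after 3 days, 0.31, -0.11 and -0.36 after 7 days, and 0.17, 0.17 and 0.37 after 14 days. All arrays of 1 day lay below 0 and all of 14 days above it, and those of 3 and 7 days fell on both sides. The fall after 1 day was to 0.699-fold (log2 -0.52, SE 0.12, adjusted p = 0.0275 by limma), the mean farthest from 0 among the members. It was lost when any 1 of the 3 arrays was left out (0.0947 to 0.133). Its processed intensities were 54.1 to 164 units, and normexp background correction with loess brought its mean to -0.23 (adjusted p = 0.0955). Its sequence is close to that of *Acot1*, and since no probe sequence was at hand, whether its probe also binds *Acot1* was not tested. *Acot13*, a small thioesterase that associates with mitochondria, had log2 ratios of 0.12, -0.21 and -0.14 after 1 day, 0.01, -0.14 and -0.12 after 3 days, 0.01, -0.17 and -0.26 after 7 days, and 0.30, 0.07 and 0.09 after 14 days. In each of the 3 MgH2 groups replicate 1 was above 0 and the others below it, while all arrays of 14 days were above 0. None of its 4 means was called (adjusted p by limma from 0.179 to 0.558). *Acot9*, a mitochondrial enzyme of broad chain length preference, had log2 ratios between -0.08 and 0.18 over 11 arrays. Its spot had been marked by the scanner software on replicate 3 of 14 days, so it was not tested there. Its means were 0.04, -0.02 and -0.05 after 1, 3 and 7 days, each with an SE of 0.05, and -0.02 over 2 arrays after 14 days.

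Among the peroxisomal enzymes, *Acot8*, the broad thioesterase that also acts on bile acid and dicarboxylic CoA esters, was lower in the treated pool on all 12 arrays by its brighter probe. Its log2 ratios were -0.14, -0.09 and -0.19 after 1 day, -0.01, -0.05 and -0.05 after 3 days, -0.06, -0.20 and -0.15 after 7 days, and -0.18, -0.09 and -0.06 after 14 days. The share of all probes with the same sign on all 12 arrays was not counted. MgH2 arrays of the same number may share a control pool, so the 12 signs are not 12 separate observations. The fall was called after 1 day (to 0.906-fold, log2 -0.14, SE 0.04, adjusted p = 0.0466 by limma) and after 7 days (to 0.911-fold, log2 -0.13, SE 0.04, adjusted p = 0.0252). The call at 1 day was lost when any 1 array was left out (0.111 to 0.192) and with the replicate number as a random block (0.0589), and that at 7 days without replicate 2 (0.147) or replicate 3 (0.109). The second probe of *Acot8* did not share it, with means of -0.05, 0.06, 0.01 and 0.08 after 1, 3, 7 and 14 days and no call. With the mean of both probes, neither call held (adjusted p = 0.15 and 0.231). *Acot3* and *Acot4*, type I enzymes that act on long-chain and on dicarboxylic acyl-CoA in the peroxisome, had the widest ranges of the family. The log2 ratios of *Acot3* were 0.89, -0.73 and -0.29 after 1 day, 0.50, -0.33 and -0.46 after 3 days, 0.61, -0.30 and -0.68 after 7 days, and 0.29, 0.03 and 0.67 after 14 days. Those of *Acot4* were 0.45, -0.61 and -0.26 after 1 day, 0.20, -0.34 and -0.38 after 3 days, 0.27, -0.46 and -0.49 after 7 days, and 0.09, 0.07 and 0.40 after 14 days. In both genes replicate 1 was above 0 and replicates 2 and 3 below it at 1, 3 and 7 days, and all 3 arrays of 14 days were above 0. The means of *Acot3* were -0.04 ± 0.84, -0.09 ± 0.52, -0.12 ± 0.66 and 0.33 ± 0.32 (SD, n = 3) after 1, 3, 7 and 14 days. The first 3 lay within their SD, and the last was about as large as its SD. The second probe of *Acot3* gave 0.85, -1.11 and -0.53 after 1 day and kept the same order of replicate 1 above 0 and the others below it at 3 days (0.22, -0.60 and -0.82) and 7 days (0.36, -0.39 and -0.87). Neither gene was called in any group (adjusted p by limma from 0.592 to 0.949 for *Acot3* and from 0.437 to 0.71 for *Acot4*).

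The control levels of *Acot3* and *Acot4* differed between replicate numbers, and the MgH2 levels spread as well. Each channel was put on the scale of intensity per 1000000 units of the total over both channels of its array, and levels are compared only within a probe. The control level of *Acot3* was 8.25, 7.13 and 7.21 at 1, 3 and 7 days in replicate 1, 15.1, 14.6 and 14.5 in replicate 2, and 18.3, 17.8 and 15.0 in replicate 3. Its level in the MgH2 pools was 15.3, 10.11 and 11.0 in replicate 1, 9.10, 11.6 and 11.8 in replicate 2, and 14.9, 13.0 and 9.42 in replicate 3. Replicate 1 thus had the lowest control level at all 3 times, replicates 2 and 3 touched (14.5 to 15.1 and 15.0 to 18.3), and the mean of the highest number was 2.26 times that of the lowest, against 1.15 times in the MgH2 pools. Within 1 day, however, the MgH2 pools of *Acot3* ranged from 9.10 to 15.3. The control level of *Acot4* was 3.50 to 3.82 in replicate 1, 5.21 to 5.62 in replicate 2 and 5.80 to 6.38 in replicate 3, without overlap between numbers. That of *Acot1* was 29.1 to 31.5, 36.5 to 39.3 and 41.9 to 43.7 for replicates 1, 2 and 3, again without overlap. For *Acot13*, replicate 1 (118 to 128) lay below replicates 2 (148 to 152) and 3 (136 to 151), which overlapped. For *Acot2*, replicate 3 (0.514 to 0.594) lay above replicates 1 (0.342 to 0.428) and 2 (0.391 to 0.432).

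**Figure D2:**
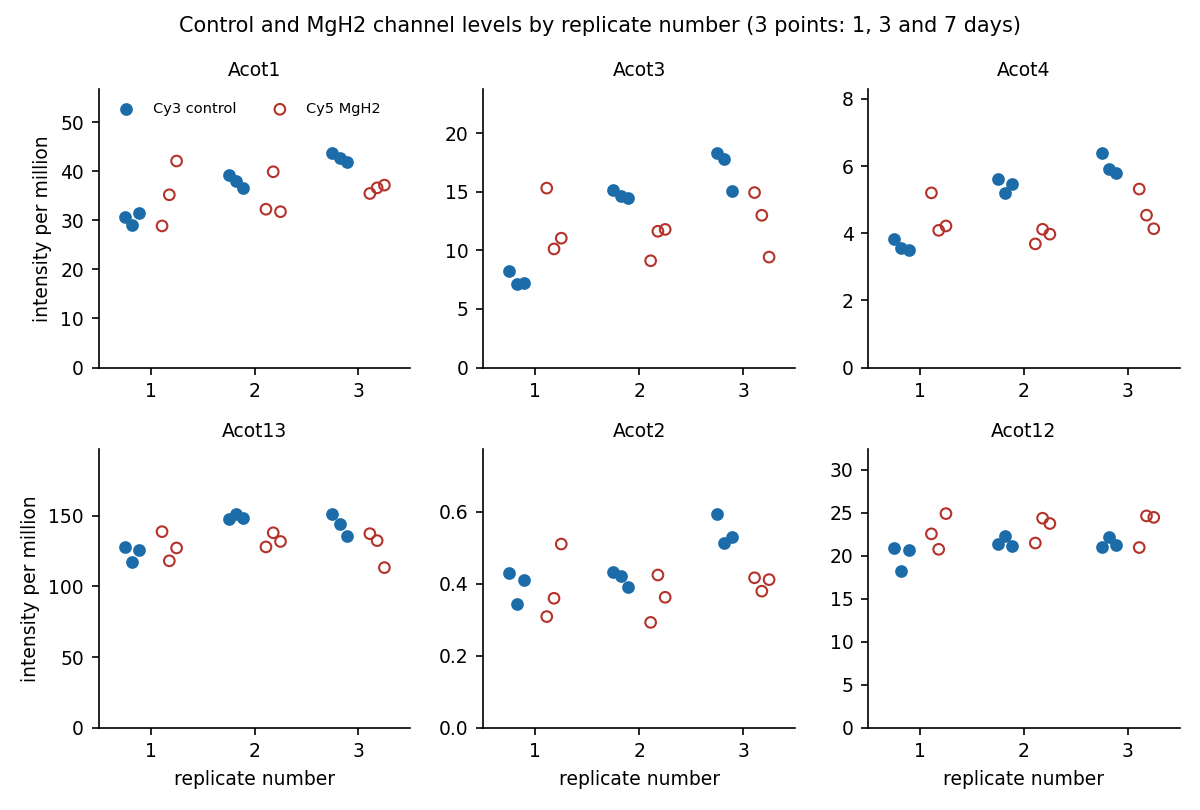
Level of 6 thioesterase genes in the control pool (Cy3, filled) and the MgH2 pool (Cy5, open) by replicate number, in intensity per 1000000 units of an array's total over both channels, with 1 point each for 1, 3 and 7 days from left to right. The control points of *Acot1* and *Acot4* form 3 separate steps by number, and those of *Acot3* lie low in replicate 1 and touch in replicates 2 and 3. The MgH2 points of *Acot1* and *Acot3* overlap between numbers. Those of *Acot4* in replicate 2 lie just below those in replicate 3, and replicate 1 overlaps both. The control points of *Acot12* in replicate 1 (18.2 to 20.9) lie just below those in replicates 2 (21.2 to 22.3) and 3 (21.0 to 22.2), which overlap.

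Of the variance of the log2 control level over the 9 MgH2 arrays, 96.9% lay between replicate numbers for *Acot3*, 97.2% for *Acot4*, 96.3% for *Acot1*, 84.8% for *Acot13* and 80.2% for *Acot2*. It was 59.6% for *Acot7*, 45.9% for *Acot12* and 30.4% for *Acot8* (82.6% for its second probe, and 98.3% for the second probe of *Acot3*), where the median over all probes above background on 12 arrays was 50.7%. In the MgH2 pools the share was 9.99% for *Acot3* (25.4% for its second probe), 39.1% for *Acot4* and 4.5% for *Acot1*, with a median over all probes of 14.2%. For the log2 ratio, 90.4% of the variance of *Acot3* and 92.0% of that of *Acot4* lay between numbers and under 1% between times (0.302% and 0.895%), whereas 77.0% of that of *Acot12* lay between times. The medians over all probes were 35.4% between numbers and 29.4% between times. The labels name a control sample for each time and do not say whether controls of the same number share mice or RNA. The ratios at 1, 3 and 7 days may therefore share control pools, and the same sign of a replicate at the 3 times is not counted as 3 observations. Some sets of cell type markers also differed by number in the control pools. The summed level of the blood genes was 251 to 267, 156 to 160 and 194 to 206 in replicates 1, 2 and 3. That of the 5 adipocyte genes was 0.723 to 0.846, 4.10 to 4.21 and 3.35 to 3.68, although *Adipoq*, *Plin1* and *Lep* among them were not above background. That of the Kupffer cell and leukocyte genes was 62.4 to 68.3, 66.5 to 68.1 and 74.9 to 76.2, with overlap between replicates 1 and 2. The stellate genes were at 71.9 to 79.9, 86.2 to 93.9 and 80.7 to 89.1. The hepatocyte, endothelial, pancreas acinar and muscle sums overlapped between all numbers. The part of these cell types in the levels of *Acot3* and *Acot4* was not tested.

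**Figure D3:**
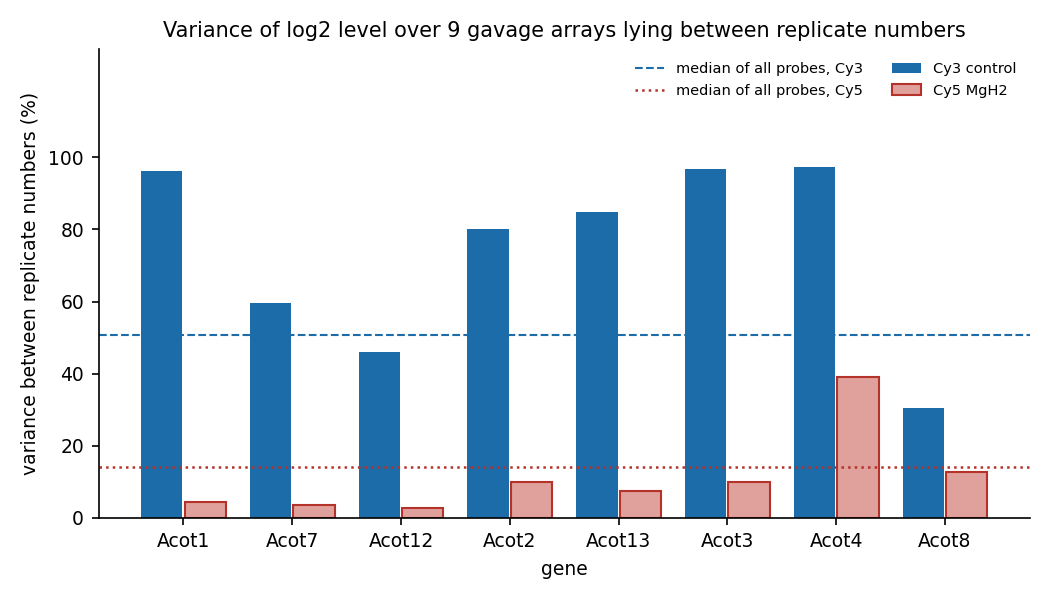
Percentage of the variance of the log2 level over the 9 MgH2 arrays that lay between replicate numbers, for the control pool (Cy3) and the MgH2 pool (Cy5) of the 8 members above background on all 12 arrays; dashed and dotted lines give the medians over all probes. *Acot1*, *Acot3* and *Acot4* exceed 96% in the control channel, and *Acot4*, at 39.1%, is the only member above the median in the MgH2 channel.

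Differences between groups were tested as contrasts of their mean log2 ratios. No member was called between 3 days and 1 day (0.0208% of all probes were, 0.0156% higher and 0.00521% lower), between 7 days and 1 day (6.98%, 3.28% higher and 3.7% lower) or between 7 and 3 days (0%). At an unadjusted p under 0.05 by limma, 2, 3 and 0 of the 9 members differed, as did 2960 of 19210, 4825 of 19153 and 904 of 19087 probes tested. From 1 to 7 days *Acot2* differed by 0.46 (95% CI 0.08 to 0.84, adjusted p = 0.124 by limma), *Acot7* by 0.21 (0.05 to 0.37, adjusted p = 0.109) and *Acot12* by 0.18 (0.06 to 0.29, adjusted p = 0.0705). In each the 3 arrays of 7 days lay above the 3 of 1 day, but the share of all probes separated in this way was not counted. With the replicate number as a fixed block, *Acot7* was called there (adjusted p = 0.0324) and *Acot12* was close to the threshold (0.0509). With the slide as a block, the differences from 1 to 7 days were 0.90, 0.42 and 0.22 for *Acot2*, *Acot7* and *Acot12* (adjusted p = 0.444, 0.437 and 0.56 by limma). On the slide shared by all 3 arrays of 1 day and 1 of 3 days, *Acot2* differed by 0.59 from 1 to 3 days, against 0.40 over all arrays. Within the slide that held arrays of both 3 and 7 days, 2 of each, the difference was 0.16 for *Acot7* and 0.08 for *Acot12*, against 0.09 and 0.06 over all arrays. For *Acot3* the difference between 7 days and 1 day was -0.07 with a 95% CI from -1.07 to 0.92.

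Between 14 days of H2-water and 7 days of MgH2, 1 of 8 members was called, where 6.61% of all probes were (3.45% higher and 3.15% lower). *Acot12* was lower after 14 days by 0.20 on the log2 scale (95% CI -0.32 to -0.09, adjusted p = 0.0483 by limma), and the 2 groups of arrays did not overlap. In the same contrast, 2 of 9 hepatocyte markers were lower (median -0.27) and 4 of 9 leukocyte markers higher and 1 lower (median 0.42), and their part was not tested. The call was lost without any 1 of the 6 arrays (adjusted p from 0.0652 to 0.136). *Acot13* was higher after 14 days by 0.29 (95% CI 0.06 to 0.52, adjusted p = 0.112 by limma), and the 2 groups of arrays did not overlap. The share of all probes without overlap between these groups was not counted. *Acot3*, *Acot4* and *Acot2* differed by 0.45, 0.41 and 0.29 with intervals that include 0. Contrasts of 14 days with 1 and 3 days were added after the ratios had been seen. By limma, 3 and 2 of the 8 members had an unadjusted p under 0.05 against 1 and 3 days, as did 2334 of 18727 and 3824 of 18658 probes tested. No member was called (against 1 day, 0.0748% of all probes were, 0.032% higher and 0.0427% lower, and against 3 days 2.43%, 1.23% higher and 1.21% lower). The largest difference was that of *Acot2* from 1 to 14 days, 0.75 (95% CI 0.37 to 1.13, adjusted p = 0.126 by limma). Route, duration and slide differ together in these contrasts and cannot be told apart.

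**Figure D4:**
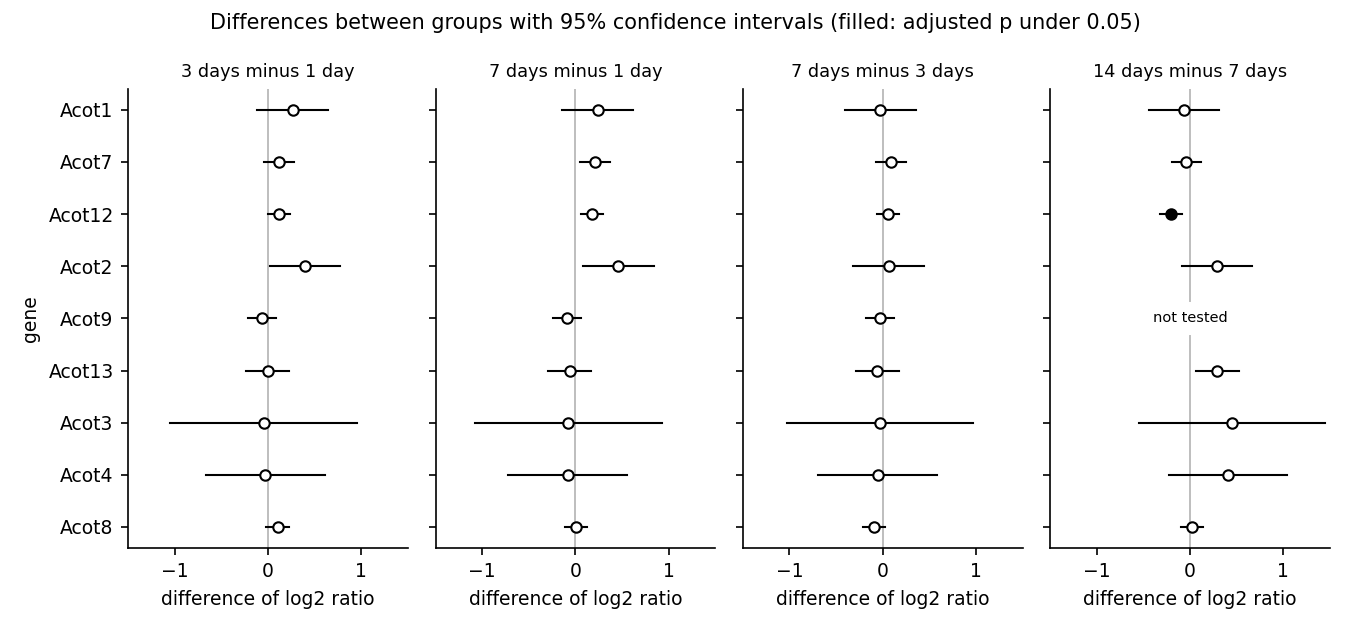
Differences of mean log2 ratio between groups for the 9 genes, with 95% confidence intervals as lines and filled points for an adjusted p under 0.05. Only *Acot12* in 14 minus 7 days is filled, at -0.20, and the intervals of *Acot3* and *Acot4* are the widest of all members.

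Over the 12 arrays *Acot3* and *Acot4*, neighbors on chromosome 12, had the most alike ratios within the family (Pearson r = 0.98). *Acot13* followed both (r = 0.79 and 0.81). *Acot1* and *Acot2* were alike at r = 0.72, and each was slightly more like *Acot7* of the type II branch (0.76 and 0.75). *Acot12* was nearly unrelated to *Acot3* (0.11) and *Acot4* (0.04). Among 11544 other genes, those most like each member were *Tpm2* and *Galk1* for *Acot4* (r = 0.961 and 0.96), *Galk1* and *Sspn* for *Acot3* (0.928 and 0.926), and *Cryz* and *Gstt1* for *Acot13* (0.953 and 0.946). They were *Snhg3* and *Stard5* for *Acot12* (0.951 and 0.945), *Rnd2* and *Ptges2* for *Acot2* (0.921 and 0.918), *Ascc1* and *Sfta2* for *Acot1* (0.911 and 0.894), and *Gpt2* and *Dmac2* for *Acot7* (0.909 and 0.897). *Acot9*, over 11 arrays, was most like *Adprhl1* and *Fhl3* (0.895 and 0.885), and *Acot8* had no close match, with *Hgf* and *Fli1* at 0.786 and 0.782. The arrays behind each r may share control pools, and these values are descriptions without a test.

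Several genes of the PPARα pathway around the family changed. PGC-1α (*Ppargc1a*), whose log2 ratios were 0.42, 0.89 and 0.43 at 3 days and 0.98, 0.60 and 0.74 at 7 days, rose in both groups (means 0.58 and 0.77, adjusted p = 0.033 and 0.00768 by limma). *Ppara* itself was not called, with means of 0.09, -0.06, -0.14 and 0.28, and its replicate 1 was the highest array at 1, 3 and 7 days. *Hnf4a*, which binds similar sites, was lower at 14 days (-0.21, adjusted p = 0.0381 by limma), a call lost after normexp and loess (0.061). Of 50 PPARα targets tested other than thioesterases, 2 were higher and 3 lower at 1 day, 13 and 8 at 3 days, 13 and 12 at 7 days, and 9 and 1 at 14 days, with medians of -0.04, 0.01, -0.01 and 0.16. Of all probes, 5.15% and 4.24% were called higher and lower at 1 day, 12.3% and 11.1% at 3 days, 15.3% and 14.3% at 7 days, and 4.92% and 3.91% at 14 days. *Cpt1a*, the entry step of mitochondrial oxidation, rose at 3, 7 and 14 days (0.33, 0.42 and 0.27), as did *Cyp4a32*, a fatty acid hydroxylase (0.25, 0.23 and 0.25). *Vnn1*, the pantetheinase that breaks down coenzyme A products, rose at 1 day (0.20), fell at 7 days (-0.34) and rose at 14 days (0.48). Its call at 1 day was lost with channels divided by their totals (adjusted p = 0.0812 by limma). *Aldh3a2*, which oxidizes fatty aldehydes, fell at 3 and 7 days (-0.14 and -0.23) and rose at 14 days (0.30). The type I thioesterases, targets of the same receptor, gave 1 call in these 4 groups, *Acot2* at 1 day. Of PPARα and its partners, 1, 2, 4 and 1 were higher at the 4 times, and 1 was lower at 14 days, of 14 tested (13 at 14 days). *Ncoa2*, a coactivator, rose at 1, 7 and 14 days (0.17, 0.17 and 0.15; at 14 days adjusted p = 0.0735 by limma after normexp and loess), and *Lpin1*, which works with PGC-1α, rose at 3 and 7 days (0.67 and 0.68).

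Of 16 other genes with thioesterase activity, 14 were tested in the MgH2 groups, and the called ones were mostly lower, with 1, 4 and 6 lower and 0, 1 and 1 higher at 1, 3 and 7 days of MgH2, and 1 of 12 was lower at 14 days. Of all probes, 4.24%, 11.1%, 14.3% and 3.91% were lower at these times, and 9.39%, 23.4%, 29.5% and 8.84% were called in all, so that single lists of this size lie near the background at several times, the synthetases among them at 3 days (4 of 17). *Lypla2*, which removes fatty acids from proteins, was lower in all 4 groups (-0.14, -0.12, -0.10 and -0.14). *Fasn*, whose own thioesterase domain releases the finished fatty acid, fell at 3 and 7 days (-1.73 and -1.70), and *Acot11*, a long-chain enzyme of the thermogenic tissues, fell likewise (-0.84 and -0.87). *Them4* rose at both times (0.28 and 0.28). Among the synthetases that feed the thioesterases, 2 and 0 were called higher and lower of 17 at 1 day, 2 and 2 of 17 at 3 days, 2 and 3 of 16 at 7 days and 1 and 0 of 17 at 14 days. *Slc27a5*, the bile acid-CoA ligase of the liver, rose at 1, 3 and 7 days (0.14, 0.12 and 0.18; with channels divided by their totals, adjusted p = 0.111 and 0.128 by limma at 1 and 3 days), *Slc27a1*, a fatty acid transport protein, rose at 3 and 7 days (0.31 and 0.40), and *Acsl3* (-0.55 and -0.67) and *Acsl5* (-0.39 and -0.31) fell at those times. For coenzyme A synthesis and breakdown, the counts were 1 and 0 of 16, 1 and 3 of 17, 0 and 4 of 17, and 1 and 0 of 17. *Nudt7*, the peroxisomal coenzyme A hydrolase, fell at 3 and 7 days (-0.61 and -0.92), as did *Dbi*, the acyl-CoA binding protein (-0.40 and -0.43), and *Enpp1* fell at 3 days (-0.62). For acyl transfer to carnitine, glycine or taurine, they were 0 and 2, 2 and 2, 1 and 2, and 2 and 0 of 11. *Glyat*, the glycine transferase, fell at 1, 3 and 7 days (-0.22, -0.18 and -0.26), *Baat*, which joins bile acids to taurine, fell at 3 and 7 days (-0.15 and -0.16; at 3 days adjusted p = 0.0963 by limma after normexp and loess), and *Cpt1b* rose at 14 days (0.44). With each channel divided by its total, the PPARα targets gave 11 and 9 calls at 3 days and 10 and 12 at 7 days. On that scale 1759 and 2821 of 19414 probes were called higher and lower at 3 days, and 2382 and 3351 of 19455 at 7 days. The balance of all probes at 7 days turned likewise, from 2973 higher and 2775 lower. At 1 day the targets gave 0 and 5 on that scale, where 717 and 1580 of 19660 probes were called. After normexp and loess they gave 5 and 2 at 1 day, where 1251 and 687 probes were called. With channels divided by their totals, the coenzyme A genes gave 0 calls at 1 day, the synthetases gave 0 and 1 calls at 1 day and 1 and 3 at 3 days, and acyl transfer 1 and 3 at 3 days.

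**Figure D5:**
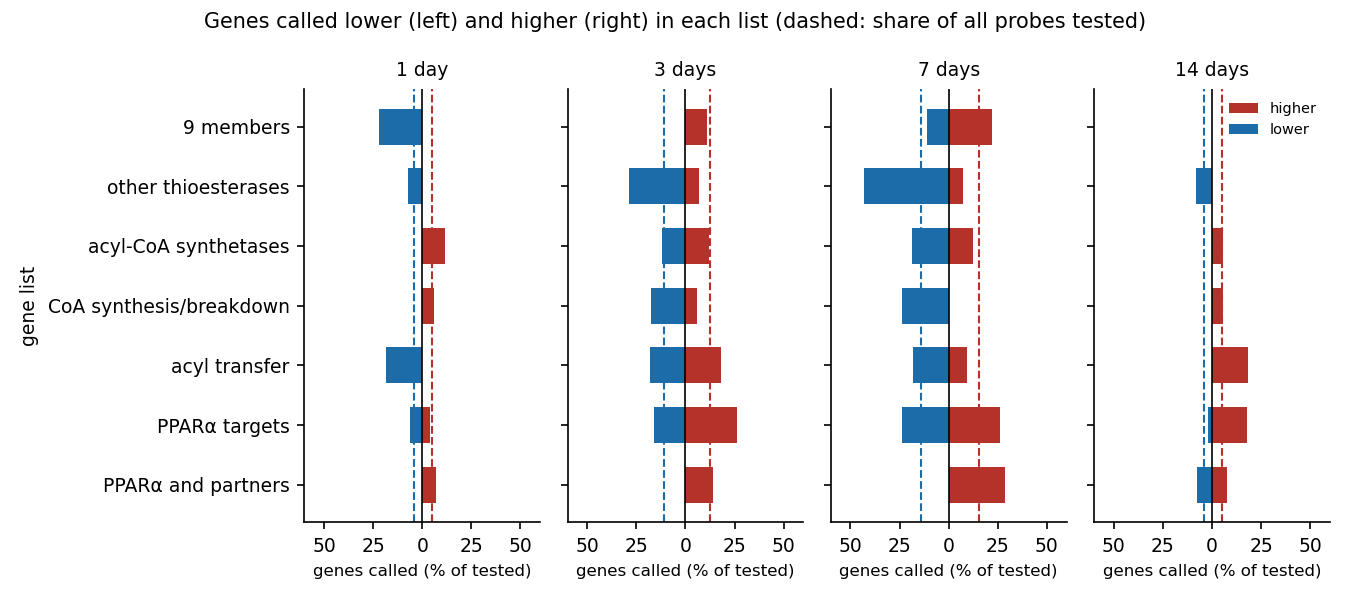
Percentage of the genes tested that were called higher (right, red) or lower (left, blue) at adjusted p under 0.05 for the 9 thioesterase members and 6 lists of related genes in the 4 groups; dashed lines give the shares over all probes tested, 15.3% higher and 14.3% lower at 7 days. The other thioesterases lie mostly on the left at 3 and 7 days, and the PPARα targets mostly on the right at 14 days.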

How the data were processed

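Liver RNA pools of *db*/*db* mice were measured on 12 two-color arrays. The authors' Feature Extraction (10.10.1 by the submitters' processing notes, 10.10.1.1 and, at 14 days, 10.7.3.1 by the file headers) subtracted background and normalized the dyes within each array, and these processed intensity values were deposited unscaled between arrays. The deposited log10 ratios and the log2 values of the value table hold the same ratios (largest difference 1.4e-06) and served as a check and an alternative, as did the deposited raw intensity values (normexp, offset 50).

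Control and marked spots were left out, and log2 ratios of Cy5 over Cy3 were averaged over the spots of a probe. All arrays were fitted with limma (version 3.58.1, R 4.3.3) as 4 group means with 1 common spread. Means were tested against 0, and their differences against each other, by two-sided tests adjusted after Benjamini and Hochberg over all probes above background on the arrays compared. Calls are at an adjusted p under 0.05. Dividing a whole array by its total intensity, as in the methods, leaves ratios unchanged. The fit was tested on simulated data.

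Replicate numbers pair the MgH2 arrays, since the ratio deviations of same-numbered arrays correlated in each of 9 pairs (r from 0.368 to 0.655), with the Cy3 channel at 0.321 to 0.67 and the Cy5 channel at -0.296 to 0.176. Those of 14 days with the MgH2 arrays gave -0.04 to 0.288 and are not paired.

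The members and lists were chosen with earlier results of these data known. Named list genes are up to 4 per list, those called at most time points and then of largest mean size, plus *Ppara*, *Ppargc1a* and *Hnf4a*, and the 2 genes most like each member. Of the probes, 67.9% carry a symbol, and *Cd68*, *Hbb-b1* and *Coasy* matched none. The deposited p values of single arrays were not used. Depth has no counterpart on arrays, and the number of arrays limits the precision.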

Additional observations from a re-analysis of the deposited data

Results flagged for a closer look

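*Acot12* differed between 14 days of H2-water and 7 days of MgH2, with a log2 ratio lower by 0.20 (difference -0.20, adjusted p = 0.0483 by limma). The ratio was above 0 on 3 of 3 arrays at 7 days and on 1 of 3 at 14 days. The call was lost without any 1 of the 6 arrays (adjusted p from 0.0652 to 0.136 by limma). It was also lost with channels divided by totals, with median centring and after normexp and loess. Route, duration and slide differ together between these groups and cannot be told apart.

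*Acot2* had ratios of opposite sign at 1 and 14 days, with all 3 arrays of 1 day below 0 and all 3 of 14 days above it. The mean of 14 days was not called (0.24, adjusted p = 0.275 by limma), and the call at 1 day was lost without any 1 array (0.0947 to 0.133). The difference of 0.75 on the log2 scale did not pass the adjustment (adjusted p = 0.126 by limma), and the contrast was added after the ratios had been seen.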

How the results depend on the processing

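Of 1141 alternative values of single genes, 1089 stayed on their side of the threshold, 47 lost a call, 5 gained one and none turned a called direction. Most of these values belong to genes and comparisons without a call, where no call could be lost. The 1089 therefore do not measure how firm the calls were. Only the call of *Acot12* at 7 days held without each of its arrays in turn. The number of members called at 1 day, 2, became 1 after normexp and loess, 1 with a random replicate block, 1 with the mean of a gene's probes and 1 by the methods' t-test unadjusted. It became 0 without a filter on dim probes, with only the group's own arrays, by that test after Benjamini-Hochberg, and in 0 to 0 without 1 replicate. The 1 call at 3 days became 0 without the filter, with only the group's arrays, by the methods' t-test unadjusted and after Benjamini-Hochberg, and 0 to 0 without 1 replicate. The 3 calls at 7 days became 0 with only the group's arrays and by the methods' t-test after Benjamini-Hochberg, and 1 to 2 without 1 replicate. The 0 calls at 14 days became 1 (*Acot7*) with the replicate or the slide as a random block and by the methods' t-test unadjusted, although the 14-day arrays share a slide of their own. With a fixed replicate block, the 0 calls of 7 minus 1 days became 1 (*Acot7*) and the 1 call of 14 minus 7 days became 2 (*Acot13* added, adjusted p = 0.0137), although the numbers do not pair the 14-day arrays with those of MgH2. That 1 call became 0 with channels divided by totals, with median centring, after normexp and loess, without the filter, with only the arrays compared, and 0 to 0 without 1 replicate. The replicate block changed no other member's call apart from *Acot8* at 1 day, lost with the random block (adjusted p = 0.0589). Causes were not tested. Without dye swaps, dye bias cannot be told apart from treatment, and *Acot3*, with SEs near 0.32, is the least precise member.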

Other observations

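The control levels of several members had other means in the water than in the gavage experiment, a comparison that the ratios within arrays do not make. In intensity per 1000000 units of an array's total, the control level of *Acot7* was 11.2 ± 0.553, 10.6 ± 0.835 and 10.3 ± 0.668 at 1, 3 and 7 days and 7.48 ± 0.283 at 14 days (SD, n = 3), and that of *Acot12* was 21.1 ± 0.261, 20.9 ± 2.29, 21.0 ± 0.32 and 18.3 ± 0.748. *Acot8* was at 17.9 ± 0.484, 18.0 ± 0.793, 17.1 ± 0.967 and 15.9 ± 0.41, and by its second probe at 8.96 ± 0.429, 9.03 ± 0.427, 8.89 ± 0.178 and 6.05 ± 0.163. The type I genes ran the other way or stayed within their spread. *Acot1* was at 37.9 ± 6.61, 36.6 ± 6.93, 36.6 ± 5.22 and 51.6 ± 9.14, *Acot2* at 0.485 ± 0.0948, 0.426 ± 0.0859, 0.444 ± 0.0742 and 0.779 ± 0.157, and *Acot4* at 5.27 ± 1.32, 4.89 ± 1.21, 4.92 ± 1.24 and 6.87 ± 1.27. *Acot3*, at 13.9 ± 5.13, 13.2 ± 5.49, 12.2 ± 4.36 and 10.6 ± 4.53 (second probe 1.51 ± 0.612, 1.45 ± 0.573, 1.38 ± 0.451 and 1.77 ± 0.649, in the other direction), and *Acot13*, at 142 ± 12.5, 138 ± 17.8, 137 ± 11.4 and 121 ± 14.1, overlapped between the experiments. Single control levels overlapped as well for *Acot1*, *Acot4*, *Acot12* and the brighter probe of *Acot8*. Those of *Acot7*, *Acot2*, *Acot9* and the second probe of *Acot8* did not. *Acot2* reached 0.594 in the gavage experiment and began at 0.598 at 14 days. *Acot9* was at 0.811 ± 0.0777, 0.804 ± 0.0579, 0.809 ± 0.0179 and 0.699 ± 0.0197 (n = 2 at 14 days). The share of all probes without overlap was not counted. Within the 14-day controls, *Acot3* stood at 7.73, 15.9 and 8.30 in replicates 1, 2 and 3, so replicate 2 was the highest there. Slide, scanner software version and experiment differ together here and cannot be told apart, and these differences were not tested.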
